A study of Mus musculus with 1 sample.

Results

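The genes described here are 10 members of the MHC class I antigen presentation pathway, followed across the peripheral blood cells of 1 mouse with small cell lung cancer (SCLC). They are the heavy chain genes H2-K1, H2-D1, H2-Q7 and H2-T22, the light chain gene B2m, the peptide transporter genes Tap1 and Tap2, the immunoproteasome genes Psmb8 and Psmb9, and Nlrc5, which encodes a transcriptional regulator of the pathway. They were given by name, and all 10 were found among the 32285 genes of the count matrix. The mouse carried the autochthonous SCLC model on a C57BL/6 background, in which Rb1 and Trp53 are deleted, and received vehicle (phosphate-buffered saline) every 3 days. From this animal 150 µl of blood was drawn, red cells were lysed, T cells were enriched by depletion of other cells, and droplet libraries of gene expression and of T cell receptors were read from the same barcodes. In the model Cre deletes both genes, and it is delivered by an adenovirus given into the trachea. The cell type that the virus reached is not named. The model used male and female mice, and the sex and exact age of this animal are not given in the sources used here. The other arm of the study, an ERBB2 inhibitor together with anti-PD-1, was not analysed here. Because all values come from 1 library of 1 mouse, there was no replicate error and no test across animals. Intervals are exact 95% intervals, Poisson for the rate of a gene, conditional binomial for a ratio and Clopper-Pearson for a share of barcodes, and they cover counting error only.

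MHC class I molecules carry fragments of intracellular proteins to the surface of nearly all nucleated cells, where CD8 T cells inspect them. The proteasome makes the fragments, and in lymphocytes and under interferon its constitutive catalytic subunits are replaced in part by the immunoproteasome subunits encoded by Psmb8, Psmb9 and Psmb10. TAP1 and TAP2 together form the pump that moves peptides into the endoplasmic reticulum, where a heavy chain and β2-microglobulin, the product of B2m, are loaded and released to the surface. H2-K1 and H2-D1 encode the classical heavy chains of this strain, H2-Q7 encodes a Qa-2 molecule and H2-T22 a nonclassical heavy chain. NLRC5 acts together with factors of the RFX, CREB and NF-Y families on class I promoters, while NF-κB and interferon regulatory factors act on separate elements.

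The promoters are shown first because B2m and 3 of the heavy chain genes hold the same pair of boxes in them, while their UMI levels moved by different amounts between the groups of cells described next. Each sequence runs from 250 bases before to 50 bases after a RefSeq start on GRCm38.p6, is read on the strand of its gene, and has in capitals all matches on either strand to 4 motifs, which are CCAAT (the core of the Y box), TGACG (letters of the X2 box), GAAANNGAA (the core of an interferon stimulated response element) and GGGGATTCC (a κB site). H2-K1 has a second start upstream of this one in the same table, whose window holds the same matches.
B2m, chr2:122147437-122147736, plus strand: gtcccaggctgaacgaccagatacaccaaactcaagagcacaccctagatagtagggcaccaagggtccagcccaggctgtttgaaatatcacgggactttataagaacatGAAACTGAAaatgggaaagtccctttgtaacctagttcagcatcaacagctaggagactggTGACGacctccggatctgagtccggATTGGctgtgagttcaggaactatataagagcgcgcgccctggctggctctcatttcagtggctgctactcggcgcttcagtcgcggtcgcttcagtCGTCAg
H2-K1, chr17:34000284-34000583, minus strand: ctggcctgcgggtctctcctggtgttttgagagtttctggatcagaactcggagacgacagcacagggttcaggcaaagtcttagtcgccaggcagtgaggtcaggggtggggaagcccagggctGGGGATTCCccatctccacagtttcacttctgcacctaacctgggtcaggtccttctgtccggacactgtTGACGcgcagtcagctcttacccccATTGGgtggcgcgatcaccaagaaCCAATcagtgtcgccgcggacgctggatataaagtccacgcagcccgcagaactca
H2-D1, chr17:35262844-35263143, plus strand: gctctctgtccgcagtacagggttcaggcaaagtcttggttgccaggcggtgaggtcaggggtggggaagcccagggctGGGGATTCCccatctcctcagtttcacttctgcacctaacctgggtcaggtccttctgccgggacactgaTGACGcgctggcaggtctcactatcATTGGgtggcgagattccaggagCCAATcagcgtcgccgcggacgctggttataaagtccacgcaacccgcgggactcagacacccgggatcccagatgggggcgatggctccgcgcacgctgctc
H2-Q7, chr17:35438905-35439204, plus strand: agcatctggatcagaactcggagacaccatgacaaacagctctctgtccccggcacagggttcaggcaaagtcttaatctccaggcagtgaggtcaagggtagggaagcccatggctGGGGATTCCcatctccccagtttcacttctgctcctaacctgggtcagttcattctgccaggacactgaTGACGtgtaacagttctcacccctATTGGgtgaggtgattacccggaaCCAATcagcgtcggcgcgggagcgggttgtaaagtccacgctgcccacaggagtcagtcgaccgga
H2-T22, chr17:36042693-36042992, minus strand: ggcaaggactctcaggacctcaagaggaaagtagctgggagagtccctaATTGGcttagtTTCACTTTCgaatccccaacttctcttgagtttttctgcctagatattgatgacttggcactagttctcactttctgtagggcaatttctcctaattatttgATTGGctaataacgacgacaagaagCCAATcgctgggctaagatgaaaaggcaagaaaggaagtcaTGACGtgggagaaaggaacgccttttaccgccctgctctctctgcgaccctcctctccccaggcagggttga
Tap1, chr17:34187306-34187605, plus strand: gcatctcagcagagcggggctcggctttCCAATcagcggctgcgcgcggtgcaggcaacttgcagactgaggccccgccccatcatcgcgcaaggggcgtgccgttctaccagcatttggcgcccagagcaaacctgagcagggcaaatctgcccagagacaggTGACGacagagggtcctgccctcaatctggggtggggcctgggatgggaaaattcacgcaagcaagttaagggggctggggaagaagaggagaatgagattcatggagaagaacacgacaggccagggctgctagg

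The table of promoters held a window for 8 of the 10 genes. CCAAT was found in 7 of these 8 genes and in 37.4% of all 32851 windows, and TGACG in 7 of 8 and in 20.8% of all windows. The κB letters were found in H2-K1, H2-D1 and H2-Q7 and in 0.250% of all windows, and GAAANNGAA was found in B2m and H2-T22 and in 8.56% of all windows. Only these exact letters were searched, and variant forms of the interferon element were not. After the κB letters, the windows of H2-K1, H2-D1 and H2-Q7 hold a near match on the reverse strand. In it the parts of the motif before and after NN change places. The lack of an exact match there thus does not show that these genes lack such an element. In B2m, H2-K1 and H2-D1 the letters TGACG preceded an inverted CCAAT by 25 bases from first letter to first letter, and in H2-Q7 by 24 bases. A spacing of 24 or 25 bases, which was noticed after the windows had been read, was held by 43 windows or 0.131% of the table. Tap1 and Psmb9 lie head to head, and their windows share 275 of 300 bases, so that the Tap1 window also shows nearly the whole Psmb9 window. These matches describe letters in a window and do not show that a factor is bound there.

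On GRCm38.p6, 8 of the 10 genes lie on chromosome 17, in the MHC. H2-K1 spans chr17:33996012-34000619, H2-D1 chr17:35263094-35267497, H2-Q7 chr17:35439140-35443773 and H2-T22 chr17:36037128-36042742. The genes of the transporter and of the immunoproteasome form 1 cluster from Psmb9 (chr17:34182030-34187330) through Tap1 (chr17:34187556-34197225) and Psmb8 (chr17:34198195-34201454) to Tap2 (chr17:34204479-34216321). B2m lies outside the MHC at chr2:122147687-122153082, and Nlrc5 at chr8:94434335-94527272. Of the 10 genes Psmb8 is the shortest, at 3260 bases with its introns, and Nlrc5 is the longest, at 92938 bases. The heavy chains are close relatives: the aligned coding bases of H2-K1 and H2-D1 were 92.0% identical, those of H2-D1 and H2-Q7 89.8%, those of H2-K1 and H2-Q7 88.2%, and those of H2-T22 with the other three between 75.3% and 78.4%. In the reference transcripts of GRCm39, stretches of 100 bases shared exactly with another gene made up 21.9% of the H2-Q7 transcript, most often with H2-Q6, 13.8% of the H2-T22 transcript, most often with H2-T10, 4.61% of the H2-D1 transcript, and none of the other 7. Counts of H2-Q7, H2-T22 and H2-D1 are uncertain, because reads from near-identical copies may have been split or dropped. The shares are of stretches of a transcript and do not measure how many reads were affected.

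The matrix held 12855001 UMIs (unique molecular identifiers, each marking 1 captured RNA molecule) over 300213 barcodes, of which the 1600 deepest were taken as cells. Their depth ran from 1334 to 18399 UMIs, and the median barcode had 3934.5. Barcodes were put into 4 classes by the RNA of a few genes: CD4 barcodes had a Cd4 UMI and none of Cd8a, Cd8b1 or Cd79a. CD8 barcodes had a Cd8a or Cd8b1 UMI and none of Cd4 or Cd79a, and were split by whether they held a UMI of a granzyme gene, Gzmk, Gzma or Gzmb. Cd79a barcodes had a Cd79a UMI and none of Cd4, Cd8a or Cd8b1. The classes held 1162 of the 1600 barcodes. Each was divided again by the share of its UMIs from 85 ribosomal protein genes, at 10%: 615 of the 1600 barcodes were under it, and 54 lay between 8% and 12%. Several markers not used to define the classes went with their names at or over 10%. Cd3e, a subunit of the T cell receptor complex, had 8.46 to 11.9 UMIs per 10000 in the T cell classes. It had 0.174 in the Cd79a class. Ms4a1 and Pax5, which mark B cells, had 9.90 and 2.51 in the Cd79a class. In the T cell classes they had at most 0.009. Cd2, another gene taken as a T cell marker, did not separate them. It had 4.53 in the Cd79a class and 2.90 to 4.97 in the T cell classes. The Cd79a class, which a T cell enrichment should remove, held 1.52% of barcodes with a T cell receptor clonotype at or over 10%, against 92.3% to 95.1% in the T cell classes. The SCLC markers Chga, Syp, Epcam and Calca together had at most 0.174 UMIs per 10000.

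At or over 10% ribosomal share, the 10 genes together made up 107.5 UMIs per 10000 in CD4 barcodes (95% interval 105.6 to 109.5, 224 barcodes). They made up 85.9 (84.9 to 86.9, 404 barcodes) in CD8 barcodes without granzyme and 130.6 (127.8 to 133.5, 98 barcodes) in CD8 barcodes with granzyme. In Cd79a barcodes they made up 74.7 (71.6 to 78.0, 66 barcodes). The order of the classes was thus CD8 with granzyme, CD4, CD8 without granzyme and Cd79a, and no intervals of neighbours overlapped. The classes also differed in what the rate is taken over: ribosomal protein genes held 35.4% of UMIs in CD8 barcodes without granzyme and between 22.6% and 25.5% in the other three classes. The median barcode had 8023 UMIs in CD8 without granzyme, 5581.5 in CD8 with granzyme, 4214.5 in CD4 and 3914.5 in Cd79a. For this reason the comparisons of the 10 genes between classes and across the ribosomal limit are also given over UMIs outside ribosomal protein genes. Gene lists, granzyme subsets, clonotype splits and gene lengths are given over all UMIs only.

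H2-K1 had 35.9 UMIs per 10000 in CD4 barcodes (34.8 to 37.1), 25.7 in CD8 barcodes without granzyme (25.2 to 26.3), 40.5 in CD8 barcodes with granzyme (38.9 to 42.2) and 21.4 in Cd79a barcodes (19.7 to 23.2). Over single barcodes its middle 50% ran from 28.3 to 46.3 in CD4, from 20.5 to 32.4 in CD8 without granzyme, from 34.5 to 53.2 in CD8 with granzyme and from 14.6 to 26.2 in Cd79a. The middle 50% of CD8 with granzyme lay wholly above that of CD8 without it, and that of CD4 wholly above that of Cd79a, while single barcodes of all classes overlapped. H2-D1 had 30.002 UMIs per 10000 in CD4 barcodes (29.0 to 31.1), 21.7 without granzyme (21.2 to 22.2), 38.1 with granzyme (36.6 to 39.7) and 24.5 in Cd79a barcodes (22.8 to 26.4). For H2-D1 the Cd79a class thus lay above CD8 without granzyme, and for H2-K1 it lay below. This order of H2-D1 did not hold over UMIs outside ribosomal protein genes. On that scale its ratio over CD4 was 0.799 in Cd79a (0.735 to 0.867) and 0.836 in CD8 without granzyme (0.801 to 0.872). H2-K1 UMIs per H2-D1 UMI were 1.20 in CD4 (1.14 to 1.26), 1.18 in CD8 without granzyme (1.15 to 1.22), 1.06 in CD8 with granzyme (1.003 to 1.13) and 0.872 in Cd79a barcodes (0.781 to 0.973).

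Among H2-K1, H2-D1, H2-Q7 and H2-T22, H2-Q7 separated the classes most widely. It had 6.55 UMIs per 10000 in CD4 barcodes (6.07 to 7.05), 6.19 in CD8 without granzyme (5.93 to 6.47), 12.2 in CD8 with granzyme (11.4 to 13.1) and 3.24 in Cd79a barcodes (2.62 to 3.97). The values of CD4 and of CD8 without granzyme were within their counting error of each other, and CD8 with granzyme and Cd79a lay apart on either side. After every barcode was thinned to 1 depth just under that of the shallowest barcode (1334 UMIs), a H2-Q7 UMI was found in 72.4% of CD8 barcodes with granzyme (62.5% to 81.0%), 64.3% of CD4 barcodes, 54.7% of CD8 barcodes without granzyme and 24.2% of Cd79a barcodes (14.5% to 36.4%). Without thinning the shares were 99.0%, 91.5%, 96.3% and 66.7%. H2-Q6, which shares stretches with H2-Q7, was picked out after its values had been seen. It had 2.43 UMIs per 10000 in CD4, 2.33 in CD8 without granzyme, 3.71 in CD8 with granzyme and 2.96 in Cd79a barcodes. Its ratio of Cd79a over CD4 was 1.22 (0.943 to 1.56), and how reads were split between these 2 genes is not known. H2-T22 had 2.33 UMIs per 10000 in CD4, 2.07 in CD8 without granzyme, 2.91 in CD8 with granzyme (2.49 to 3.37) and 1.88 in Cd79a barcodes (1.41 to 2.46). With the classes ordered by level, the intervals of neighbours overlapped for H2-T22, and CD8 with granzyme lay above CD8 without it.

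B2m, whose product pairs with every heavy chain, varied less between the T cell classes than H2-K1 and H2-D1 did. It had 20.7 UMIs per 10000 in CD4 barcodes (19.8 to 21.6), 19.8 in CD8 without granzyme (19.4 to 20.3), 22.6 in CD8 with granzyme (21.4 to 23.9) and 14.95 in Cd79a barcodes (13.6 to 16.4). The UMIs of H2-K1 and H2-D1 per B2m UMI were 3.19 in CD4 (3.04 to 3.35), 2.39 in CD8 without granzyme (2.32 to 2.46), 3.47 in CD8 with granzyme (3.27 to 3.69) and 3.07 in Cd79a barcodes (2.75 to 3.43). CD8 barcodes without granzyme thus held fewer heavy chain UMIs for each B2m UMI than the other three classes. This ratio does not depend on the total of a barcode, but it went with ribosomal share. From 15 to 20% ribosomal share, CD8 without granzyme had 453 H2-K1, 349 H2-D1 and 202 B2m UMIs, and CD4 had 864, 743 and 454. Over 30% the same counts were 6448, 5406 and 5244 in CD8 without granzyme and 1050, 814 and 666 in CD4. CD8 without granzyme was thus lower in this ratio over 30%, but not from 15 to 20%. The part of ribosomal share in it was not tested.

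The transporter genes also had their highest level in CD8 barcodes with granzyme, for Tap2 together with CD4 barcodes. Tap1 had 1.58 UMIs per 10000 in CD4 barcodes (1.34 to 1.83), 1.20 in CD8 without granzyme (1.08 to 1.33), 2.03 in CD8 with granzyme (1.68 to 2.42) and 1.36 in Cd79a barcodes (0.97 to 1.86). Tap2 had 2.26 in CD4 (1.98 to 2.56), 1.42 in CD8 without granzyme (1.30 to 1.56), 2.26 in CD8 with granzyme (1.90 to 2.67) and 0.94 in Cd79a barcodes (0.62 to 1.37). CD8 without granzyme was lowest for Tap1 and Cd79a for Tap2, with intervals that overlapped between these classes in both genes. Over UMIs outside ribosomal protein genes Cd79a was lowest for Tap1 too, at 0.843 of CD4 against 0.881 in CD8 without granzyme. Psmb8 had 4.63 UMIs per 10000 in CD4 (4.23 to 5.06), 4.70 in CD8 without granzyme (4.46 to 4.94), 6.38 in CD8 with granzyme (5.76 to 7.05) and 4.04 in Cd79a barcodes (3.34 to 4.85). Psmb9 had 2.13, 1.90, 1.98 and 1.81 in the same order, and no pair of classes differed beyond its intervals. Nlrc5 had 1.43 UMIs per 10000 in CD4 (1.21 to 1.68), 1.16 in CD8 without granzyme (1.05 to 1.28), 1.56 in CD8 with granzyme (1.26 to 1.91) and 0.56 in Cd79a barcodes (0.32 to 0.91). In 66 Cd79a barcodes 16 Nlrc5 UMIs were counted, and after thinning 6.06% of these barcodes held one (1.68% to 14.8%), against 14.6% to 21.4% in the T cell classes.

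**Figure D1:**
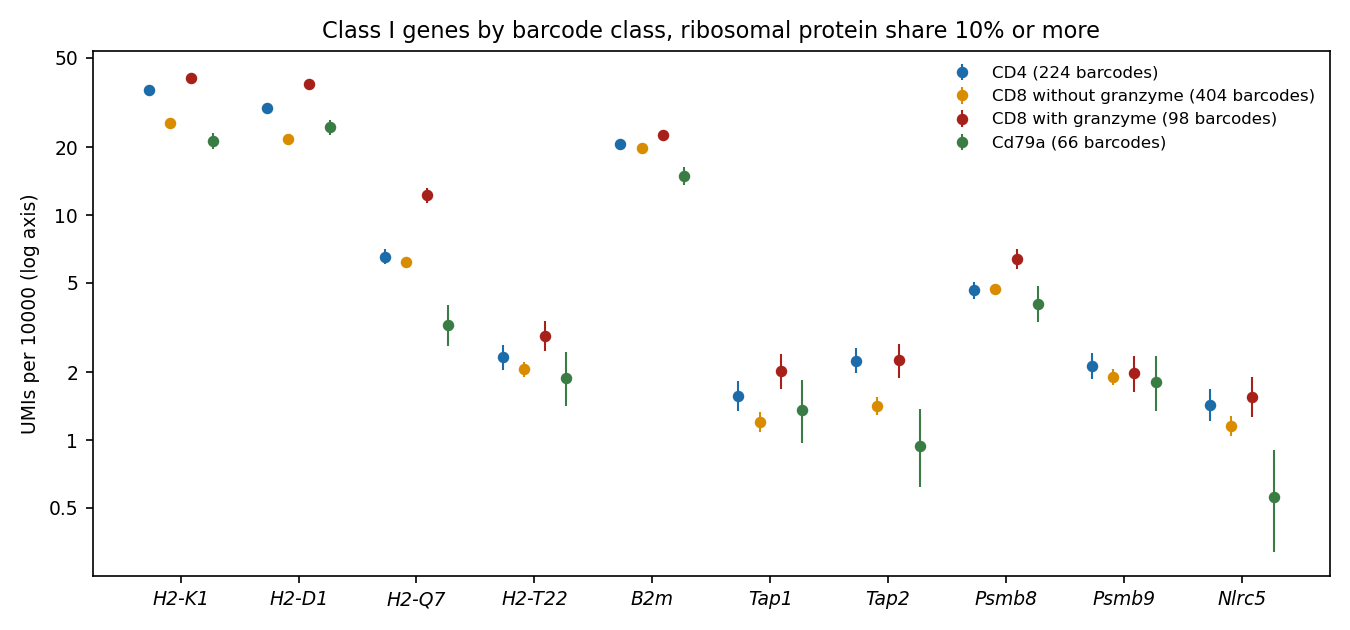
UMIs per 10000 of each gene (y axis, log scale) in the 4 barcode classes at or over 10% ribosomal protein share, with exact 95% Poisson intervals that cover counting error only. CD8 barcodes with granzyme are highest for H2-K1, H2-D1 and H2-Q7, Cd79a barcodes are lowest for H2-Q7, Tap2 and Nlrc5, and the 4 classes lie together for Psmb9.

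CD8 barcodes without granzyme were compared with CD4 barcodes first, since these are the most numerous classes. Only CD8 barcodes were split by granzyme. Of the CD4 barcodes, 2.68% held a Gzmk UMI, 0.893% a Gzma UMI and 2.68% a Gzmb UMI, and these were kept. The part of this uneven cut in the ratios was not tested. H2-K1 and H2-D1 were lower in the CD8 class, at ratios of 0.716 (0.689 to 0.744) and 0.724 (0.694 to 0.755), and Tap2 was lower at 0.631 (0.538 to 0.741). B2m was at 0.959 (0.913 to 1.01), H2-Q7 at 0.946 (0.867 to 1.03) and Psmb8 at 1.01 (0.916 to 1.13), so their intervals included 1. Tap1 was at 0.762, Nlrc5 at 0.810, H2-T22 at 0.888 and Psmb9 at 0.892. Summed, the 10 genes were at 0.799 (0.782 to 0.817). Only Tap2 was past a ratio of 1.5 in either direction, which 5.17% of 7547 genes with at least 50 UMIs in the classes together passed as higher and 20.9% as lower. The median ratio was 0.849 over the 10 genes and 0.832 over all genes. Over UMIs outside ribosomal protein genes the median gene moved by 0.21 on the log2 scale to a ratio of 0.961, and the sum was at 0.923 (0.903 to 0.943). No member was then past the fold, against 9.62% of all genes higher and 11.2% lower. On that scale H2-K1 (0.827), H2-D1 (0.836) and Tap2 (0.729) were still below 1 with their intervals, whereas B2m (1.11, 1.05 to 1.16), Psmb8 (1.17, 1.06 to 1.30) and H2-Q7 (1.09) were above 1 with theirs. Tap2 was also within the fold with the ribosomal limit at 5% (0.678) and in barcodes of 2000 to 4000 UMIs (0.763).

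CD8 barcodes with granzyme were compared with CD8 barcodes without it, to ask whether the class that holds effector RNA differs in class I RNA. H2-Q7 was higher at a ratio of 1.97 (1.81 to 2.15), with a larger value than 92.6% of all genes tested. H2-D1 was higher at 1.76 (1.67 to 1.84), Tap1 at 1.69 (1.37 to 2.07), Tap2 at 1.59 (1.30 to 1.92) and H2-K1 at 1.58 (1.51 to 1.65). H2-T22 (1.40), Psmb8 (1.36), Nlrc5 (1.35) and B2m (1.14, 1.08 to 1.21) were higher by less than 1.5-fold, and Psmb9 was at 1.04 (0.846 to 1.27). The sum of the 10 genes was at 1.52 (1.48 to 1.56). Thus 5 of 10 genes were past the fold as higher and none as lower, against 23.4% of 7178 genes higher and 9.75% lower, and the median was 1.49 over the 10 genes and 1.17 over all. Over UMIs outside ribosomal protein genes the median gene moved by -0.26 on the log2 scale to 0.974, and the sum was at 1.27 (1.24 to 1.30). Of the 10 genes only H2-Q7 remained past the fold, at 1.65 (1.51 to 1.79), against 11.2% of all genes higher and 16.9% lower. On that scale H2-D1 was at 1.46, H2-K1 at 1.31, Tap1 at 1.41, Tap2 at 1.32 and Psmb8 at 1.13, all above 1 with their intervals. H2-T22 (1.17), Nlrc5 (1.12), Psmb9 (0.866) and B2m (0.952, 0.897 to 1.01) had intervals that included 1. In barcodes of 2000 to 4000 UMIs, of which 17 were with and 44 without granzyme, Tap1 (1.35) and Tap2 (1.04) were within the fold, and Psmb8 (2.81) and Nlrc5 (1.67) were past it as higher. With granzyme called from Gzma or Gzmb, H2-K1 (1.42) was within the fold and Nlrc5 (1.505) past it. The granzyme class was cut by granzyme UMIs alone, and Ccl5 and Nkg7, which were not used to define it, were at 235 and 30.5 UMIs per 10000 against 18.3 and 7.48 without granzyme.

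Within the granzyme class, pooled levels were lower in barcodes that held Gzma or Gzmb but no Gzmk. Barcodes with Gzmk only (35) had 138.7 UMIs per 10000 of the 10 genes (133.6 to 143.9), those with Gzmk together with Gzma or Gzmb (39) had 140.7 (136.0 to 145.5), and those with Gzma or Gzmb only (24) had 105.4 (100.5 to 110.6). H2-K1 was at 45.1, 41.9 and 32.8 in these subsets, and B2m at 26.2, 22 and 19.1. H2-Q7 was at 11.96 (10.5 to 13.6), 15.3 (13.7 to 16.9) and 8.05 (6.72 to 9.56). Single barcodes differed less: the median H2-K1 level of a barcode was 45.3, 41.1 and 39.9, with a middle 50% from 27.7 to 49.6 without Gzmk, so that the subsets overlapped. The ribosomal share was 24.4%, 18.8% and 26.2% in the same order.

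Cd79a barcodes were compared with CD4 barcodes, which also served as the denominator of the first comparison. Nlrc5 was lower at a ratio of 0.389 (0.217 to 0.653), Tap2 at 0.417 (0.269 to 0.622), H2-Q7 at 0.495 (0.394 to 0.616) and H2-K1 at 0.596 (0.546 to 0.649). B2m was at 0.723 (0.650 to 0.802), H2-D1 at 0.818 (0.753 to 0.888), and H2-T22, Tap1, Psmb8 and Psmb9 were between 0.806 and 0.873 with intervals that included 1. All 10 ratios lay below 1, and 4 were past the fold as lower, against 14.5% of 4343 genes past it as higher and 24.4% as lower. The median ratio was 0.765 over the 10 genes and 0.926 over all genes. The sum was at 0.695 (0.663 to 0.728), and over UMIs outside ribosomal protein genes at 0.679. There again 4 of the 10 genes were past the fold as lower, against 13.6% of all genes higher and 26.1% lower. Ciita, the MHC class II counterpart of Nlrc5, which was picked out after its values had been seen, had 1.05 UMIs per 10000 in Cd79a barcodes and at most 0.009 in the T cell classes at or over 10%.

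**Figure D2:**
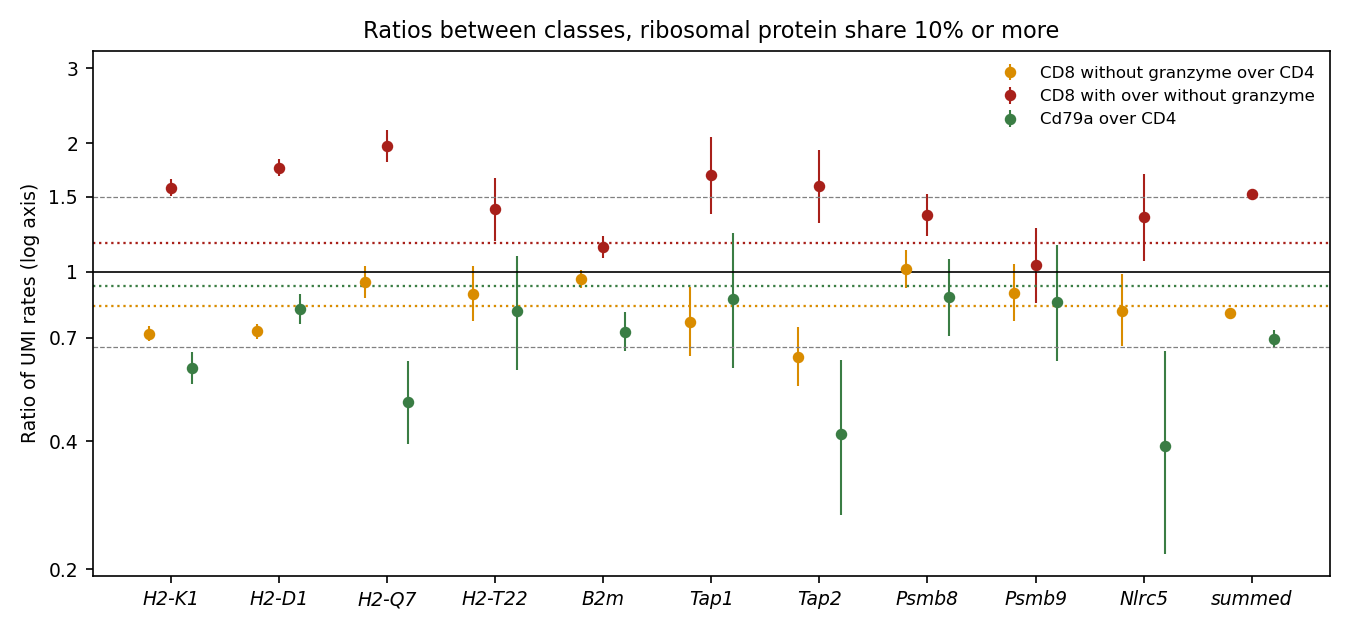
Ratio of UMI rates (y axis, log scale) for each gene and for their sum in 3 comparisons between classes at or over 10% ribosomal share, with exact 95% intervals. Dotted lines in the same colours mark the median ratio of all genes tested, dashed lines mark a 1.5-fold difference, and H2-Q7 lies at 1.97 with granzyme and at 0.495 in Cd79a barcodes.

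The rest of the pathway was followed in 6 lists, whose counts past the fold are read against the share of all genes tested. Between CD8 barcodes without granzyme and CD4 barcodes, 5.17% of all genes were higher and 20.9% lower. Among other class I heavy chains, 7 of 15 genes in the matrix could be compared there, of which 1 was higher and 3 were lower, with a median of 0.732, from Fcgrt (12.9, 4.93 to 47.8, 157 against 4 UMIs), the neonatal Fc receptor, to H2-T24 (0.211). In peptide loading, 1 of 9 was lower there, Pdia3 (0.602), and the highest was Sec61b (1.38). No gene of the other immunoproteasome and activator genes (5), the constitutive catalytic subunits (3) or the proteasome core (11) was past the fold. Of the regulators, 4 of 13 were lower and none was higher (median 0.752). With granzyme over without, where 23.4% of all genes were higher and 9.75% lower, 2 of 7 other heavy chains, 1 of 9 peptide loading genes (Tapbpl, 1.58), 1 of 5 other immunoproteasome genes (Psmb10, 1.61) and 1 of 11 core genes (Psmb3, 1.62) were higher, none of these lists held a lower gene, and their medians were 1.36, 1.23, 1.46 and 1.29. Of 11 regulators 1 was higher (Nfyb, 1.68) and 1 was lower. In Cd79a over CD4 barcodes, where 14.5% of all genes were higher and 24.4% lower, 2 regulators were higher and 3 lower of 10, with Irf2 the highest at 1.57 (1.21 to 2.03). In that comparison 1 of 5 other heavy chains was higher and 2 were lower, 2 of 9 peptide loading genes were lower, and the other immunoproteasome genes, the constitutive subunits and the core had 1 lower gene each, with medians of 0.861, 0.728, 0.860, 1.03 and 0.910.

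Low ribosomal share divided the pathway by gene. Between CD4 barcodes under and at or over 10%, the 10 genes together went from 107.5 to 60.3 UMIs per 10000, a ratio of 0.561 (0.537 to 0.587). Psmb8 was lowest, from 4.63 to 0.809 (0.175, 0.118 to 0.250), followed by B2m, from 20.7 to 5.26 (0.254, 0.219 to 0.293), and Psmb9, from 2.13 to 0.683 (0.320, 0.206 to 0.478). H2-D1 went to 17.0 (0.568, 0.522 to 0.617) and H2-K1 to 20.8 (0.579, 0.536 to 0.624). H2-T22 (0.834), Tap2 (0.828), H2-Q7 (1.02) and Tap1 (1.11) had intervals that included 1, and Nlrc5 was higher, at 3.49 against 1.43 (2.43, 1.92 to 3.09). Past the fold were 5 genes as lower and 1 as higher, against 25.1% of 4858 genes lower and 47.7% higher. The median was 0.704 over the 10 genes and 1.42 over all genes, so that 9 of the 10 lay below the median gene. Among the 380 best counted genes, with 500 or more UMIs over the groups together, a limit chosen after values were seen, 52.6% were lower and 32.6% were higher. With the limit at 15% Psmb8 was at 0.474 and B2m at 0.417, and H2-K1 (0.721) and H2-D1 (0.703) were no longer past the fold, nor were they in clonotyped barcodes alone (0.679 and 0.716).

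In CD8 barcodes without granzyme, the same genes were lowest and highest. The sum went from 85.9 to 50.9 UMIs per 10000, a ratio of 0.593 (0.572 to 0.614). Psmb8 went from 4.70 to 1.28 (0.272, 0.217 to 0.337), B2m from 19.8 to 5.70 (0.288, 0.259 to 0.318) and Psmb9 from 1.90 to 0.697 (0.366, 0.267 to 0.491). H2-D1 was at 0.608, 13.2 against 21.7, and H2-K1 at 0.629, 16.2 against 25.7. H2-T22 was at 0.701, H2-Q7 at 0.940 (0.842 to 1.05), Tap1 at 1.03, Tap2 at 1.08 and Nlrc5 at 3.33 (2.83 to 3.90), with 3.86 against 1.16 UMIs per 10000. Again 5 genes were past the fold as lower and 1 as higher, against 19.8% of 7527 genes lower and 54.1% higher. The median was 0.665 over the 10 genes and 1.66 over all. Among the 1069 genes with 500 or more UMIs in this comparison, 37.5% were lower and 45.2% were higher. In clonotyped barcodes alone H2-D1 (0.944) and H2-K1 (0.850) were no longer past the fold, and B2m and Psmb8 were at 0.454 and 0.448. In barcodes of 2000 to 4000 UMIs H2-T22 (0.462) and Tap1 (0.620) were past it as lower. In Cd79a barcodes, 24 of which were under 10%, only 7 of the 10 genes had 50 UMIs in both groups together, and 5 of them were lower: Psmb8 at 0.119 (0.024 to 0.358), B2m at 0.215, H2-D1 at 0.420, H2-T22 at 0.428 (0.134 to 1.06) and H2-K1 at 0.436. H2-Q7 was at 0.845 and Psmb9 at 0.977 (0.460 to 1.90). The background was 39.7% of 1124 genes lower and 41.4% higher. The group at or over 10% held 286891 UMIs against 62095 under it, so genes high there reached 50 UMIs more readily. Among the 106 genes with 500 or more UMIs in this comparison, 88.7% were lower and 6.60% were higher. The sum was at 0.422 (0.363 to 0.489), or 31.6 against 74.7 UMIs per 10000, and the median gene at 1.06. These values rested on the limit: divided at 15% ribosomal share in place of 10%, the sum was at 0.646, B2m at 0.516, Psmb8 at 0.473 and H2-D1 at 0.663, and divided at 5% H2-T22 was at 0.207 and Psmb9 at 0.295. Psmb8 was at 0.218 when barcodes with T cell genes were let into the class, and Psmb9 at 0.630 in barcodes of 2000 to 4000 UMIs. Only 10 CD8 barcodes with granzyme were under 10%, with 92.7 UMIs per 10000 of the 10 genes (83.4 to 102.7), and no ratio was taken for them.

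Taken over UMIs outside ribosomal protein genes, these ratios were smaller still, because barcodes at or over 10% have more ribosomal UMIs to leave out. The median gene moved by -0.38 on the log2 scale in CD4, by -0.58 in CD8 without granzyme and by -0.35 in Cd79a barcodes, to ratios of 1.09, 1.11 and 0.835. The sum of the 10 genes was then at 0.431 (0.412 to 0.451), 0.395 (0.382 to 0.410) and 0.332 (0.285 to 0.384). B2m was at 0.195 in CD4 and 0.192 in CD8 without granzyme, and Nlrc5 at 1.87 and 2.22. H2-Q7, whose intervals had included 1, was then lower at 0.786 (0.680 to 0.907) and 0.627 (0.561 to 0.698), as were H2-T22 and Tap2 in both, while Tap1 at 0.851 in CD4 had an interval that included 1 and at 0.685 in CD8 had not. On this scale 7 genes were past the fold as lower and 1 as higher in both T cell comparisons, against 32.5% and 30.5% of genes lower and 36.3% and 36.6% higher. The heavy chain UMIs per B2m UMI, which no denominator touches, were 7.20 (6.22 to 8.36) in CD4 barcodes under 10% against 3.19 at or over it, and 5.15 (4.62 to 5.75) against 2.39 in CD8 without granzyme. H2-K1 per H2-D1 UMI was 1.22 and 1.23 under 10%, within counting error of the values at or over it.

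**Figure D3:**
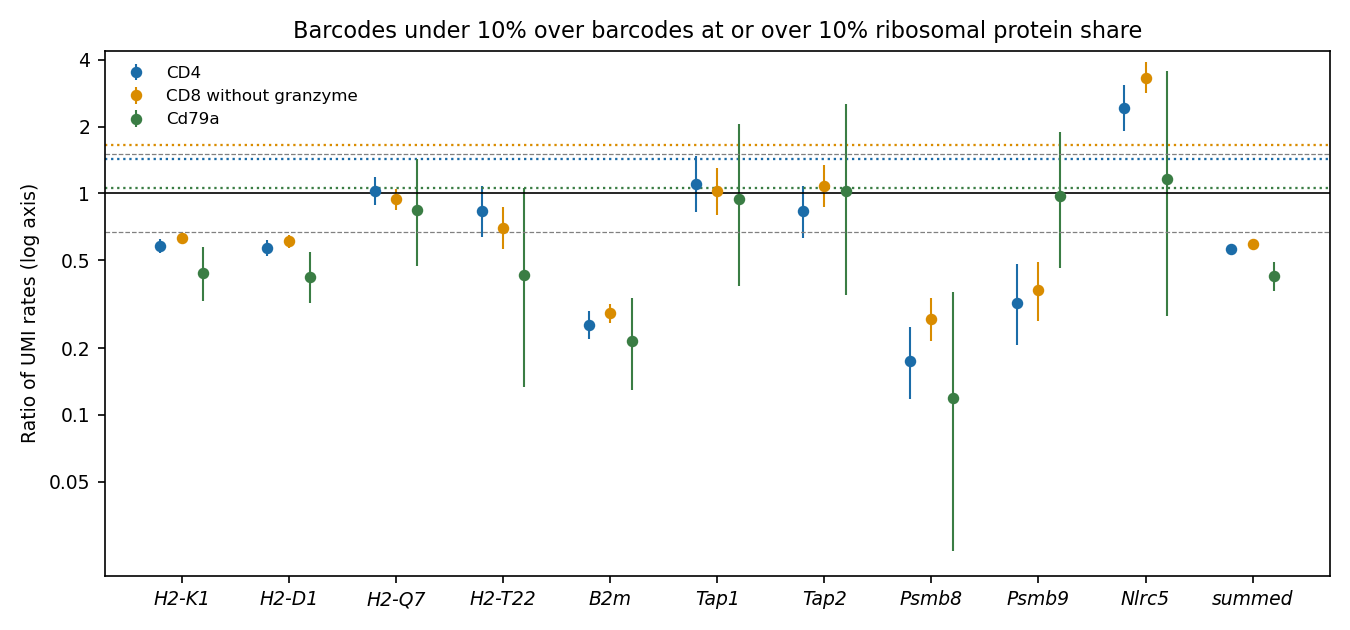
Ratio of UMI rates in barcodes under 10% over barcodes at or over 10% ribosomal protein share (y axis, log scale), with exact 95% intervals, for CD4, CD8 without granzyme and Cd79a barcodes. Dotted lines mark the median of all genes tested in each class and dashed lines a 1.5-fold difference. With the limit at 10% Psmb8 and B2m lie between 0.119 and 0.288 in all 3 classes, and Nlrc5 at 2.43 and 3.33 in the T cell classes.

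After the same thinning, B2m was found in 42.3% of CD4 barcodes under 10% (34.0% to 50.8%) against 89.7% at or over it (85.0% to 93.4%), and in 66.2% against 100% without thinning. Psmb8 was found in 7.04% (3.43% to 12.6%) against 43.3%, while Nlrc5 was found in 33.8% (26.1% to 42.2%) against 20.5% (15.4% to 26.4%). For comparison, in 24 barcodes outside the classes with at least 1% of UMIs from erythroid genes, which should hold little class I RNA, B2m was found in 29.2%, H2-D1 in 25% and H2-K1 in 12.5%, and Psmb8, Nlrc5 and H2-Q7 in none (0 of 24, where 3 counts of the total allow a share of barcodes with a UMI of up to 12.5%), at a median of 4122 UMIs and without thinning. The RNA in 20532 barcodes with 10 to 50 UMIs, taken as free RNA, had 16.1 UMIs per 10000 of B2m, 13.6 of H2-K1 and 0.720 of Nlrc5, so that B2m was higher there than in T cell barcodes under 10%, at 5.26 and 5.70.

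Over finer steps of ribosomal share, CD4 and CD8 barcodes together (with and without granzyme) went in B2m from 3.40 UMIs per 10000 under 2.5% to 6.02, 13.4 and 19.7 in the next steps (2.5 to 5%, 5 to 10% and 10 to 15%), and stayed between 19.9 and 22.95 in the 4 steps above. H2-K1 went from 13.9 to 41.4 at 15 to 20% and back to 25.4 over 30%. In that last step 293 of 363 barcodes were CD8 without granzyme. Over UMIs outside ribosomal protein genes, B2m went from 22.6 at 10 to 15% to 31.9 over 30%. H2-K1 on that scale went from 50.2 at 15 to 20% to 40.8 over 30%. Psmb8 was at 0.772, 1.498 and 1.75 in the 3 steps under 10% and at 6.57 in the step from 10 to 15%. Nlrc5 ran the other way, from 4.24 under 2.5% to 1.04 over 30%. Right at the limit, 19 barcodes from 8 to 10% had 16.2 UMIs per 10000 of B2m, 30.4 of H2-K1, 2.34 of Psmb8 and 4.21 of Nlrc5, and 17 barcodes from 10 to 12% had 19.8, 42.2, 6.35 and 1.75. B2m and Psmb8 therefore both changed over a range of shares, and Psmb8 had its largest step at the limit, on 15 UMIs from 8 to 10%. The mix of classes changed over these steps too. In CD8 without granzyme alone Psmb8 was at 0.874, 1.68, 1.75 and 3.93 (2.09 to 6.73) in the first 4 steps.

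**Figure D4:**
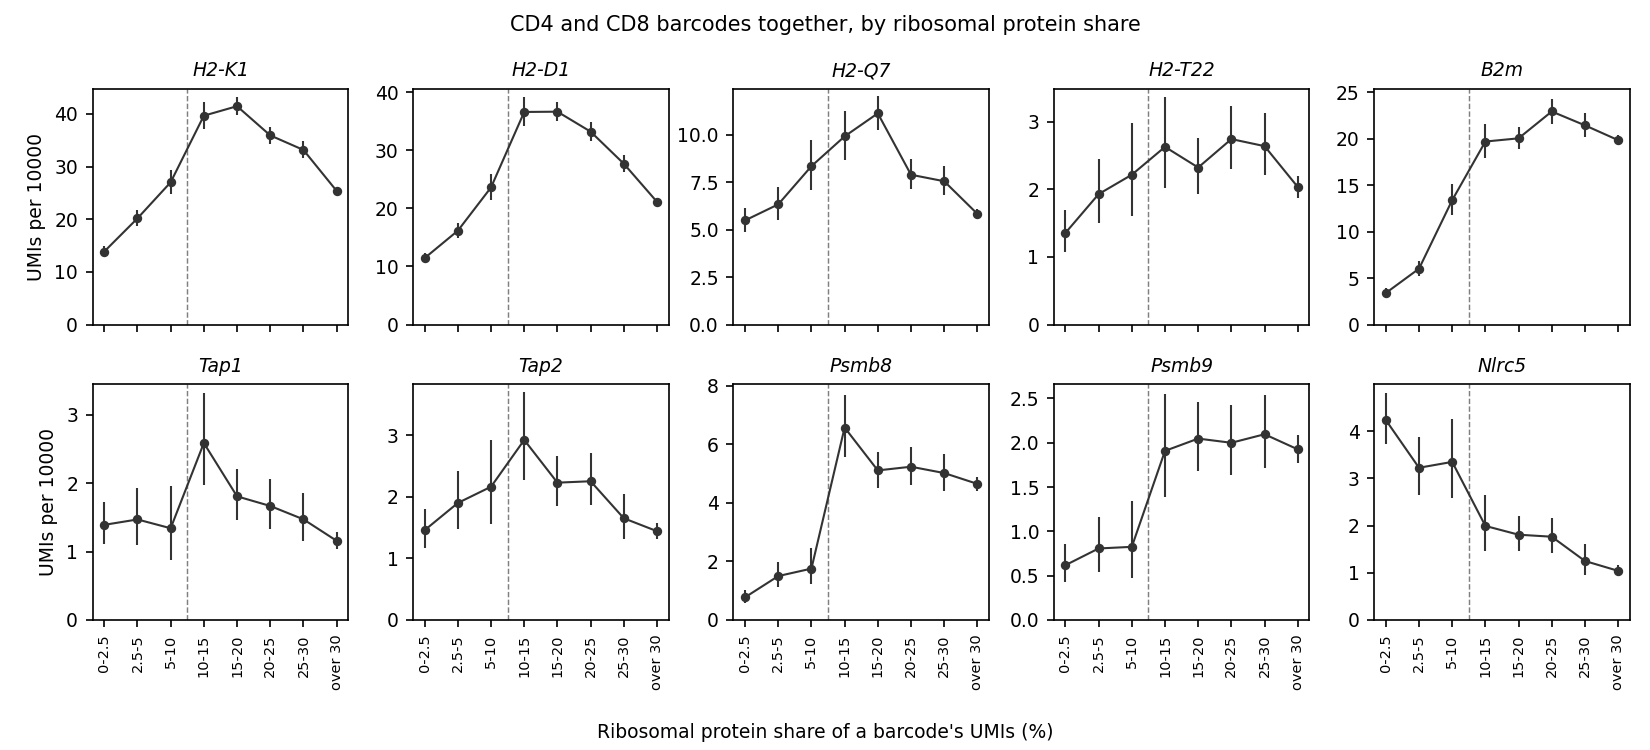
UMIs per 10000 of each gene (y axes, linear from 0) in CD4 and CD8 barcodes together by steps of the ribosomal protein share of a barcode's UMIs (x axes, percent), with exact 95% Poisson intervals. The dashed line marks 10%, B2m rises from 3.40 to 19.7 over the first 4 steps, and Nlrc5 is at 4.24 in the first and 1.04 in the last.

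The groups on either side of 10% differed in other respects, whose part in these ratios was not tested. Among CD4 barcodes, mitochondrial UMIs made up 2.74% under and 1.59% at or over 10%, the nuclear RNA Malat1 3.01% against 1.18%, the median depth was 2719 against 4214.5 UMIs, and a clonotype was found in 36.6% against 95.1%. In CD8 barcodes without granzyme the same values were 3.37% against 1.54%, 2.08% against 0.593%, 3381 against 8023 UMIs and 24.2% against 92.3%. The T cell marker genes summed to 22.9 against 45.2 UMIs per 10000 in CD4 barcodes. Neutrophil genes summed to 5.18 against 0.71 in CD8 barcodes without granzyme, where Csf3r was at 0.41 and 0.02, and to 0.05 against 0.01 in CD4 barcodes. In CD8 barcodes without granzyme these sums came from few barcodes, as 2.06% under and 0.990% at or over 10% held a neutrophil UMI. Monocyte, platelet and erythroid genes each summed to at most 1.64 in these 4 groups. Less RNA of a gene in each cell and a different mix of cells cannot be told apart in pooled rates.

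Barcodes with a clonotype differed less across the limit. In CD4 barcodes under 10%, the 10 genes had 72.3 UMIs per 10000 with a clonotype (68.2 to 76.6, 52 barcodes) and 52.3 without (49.5 to 55.3, 90 barcodes). At or over 10% they had 107.7 with a clonotype and 102.6 without (92.7 to 113.3, 11 barcodes). Among barcodes with a clonotype alone, the ratio of the sum was 0.671 in CD4 and 0.793 in CD8 without granzyme, against 0.561 and 0.593 over all barcodes. B2m under 10% was at 6.81 with and 4.22 without a clonotype in CD4 barcodes, and at 8.97 and 4.38 in CD8 without granzyme. Nlrc5 in CD8 without granzyme was at 2.72 with (2.04 to 3.55) and 4.32 without a clonotype (3.76 to 4.95). The median depth in CD4 barcodes under 10% was 3096.5 UMIs with a clonotype and 2603 without. Their ribosomal share was 3.61% with and 2.57% without a clonotype. In CD8 barcodes without granzyme under 10% it was 4.40% and 2.71%. The part of ribosomal share in these differences was not tested.

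The ratios across the limit ran with the length of the gene. Of the 4858 genes tested in CD4 barcodes 4704 were set in steps of length, and 7311 of 7527 in CD8 barcodes without granzyme. Over 4704 genes in CD4 barcodes, the median ratio was 0.339 for genes under 5000 bases with their introns, 0.528 from 5000 to 10000, 0.845 from 10000 to 20000, 1.497 from 20000 to 50000, 2.40 from 50000 to 100000 and 3.24 above. In CD8 barcodes without granzyme it went from 0.430 to 4.27 over the same steps. Spearman's rho across genes between ratio and length was 0.803 (4701 genes) and 0.794 (7305 genes), as a description only, since genes of 1 library are no independent replicates. Set against genes of like length in CD4 barcodes, Nlrc5 (2.43) was at the median of its step (2.40), and Tap2 (0.828) likewise (0.845). H2-Q7 (1.02) lay above 93.6% of the genes under 5000 bases, Tap1 (1.11) above 86.8%, H2-K1 above 77.6%, H2-D1 above 76.4% and H2-T22 above 75.5% of the genes in their steps. Psmb9 lay above 21.9%, Psmb8 above 18.8% and B2m above 15%. In CD8 barcodes without granzyme the values were 86.2% for H2-Q7, 71.0% for Tap1, 56.6% for Nlrc5, 28.5% for Psmb8, 16.8% for Psmb9 and 11.6% for B2m. There H2-K1 lay above 68.9%, H2-D1 above 66.4%, Tap2 above 47.8% and H2-T22 above 47.7%, so H2-T22 was near the median of its step. Nlrc5, alone of the 10 in being past the fold as higher, thus lay near the median of genes of like length, and B2m, Psmb8 and Psmb9 lay in the lower part of theirs.

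**Figure D5:**
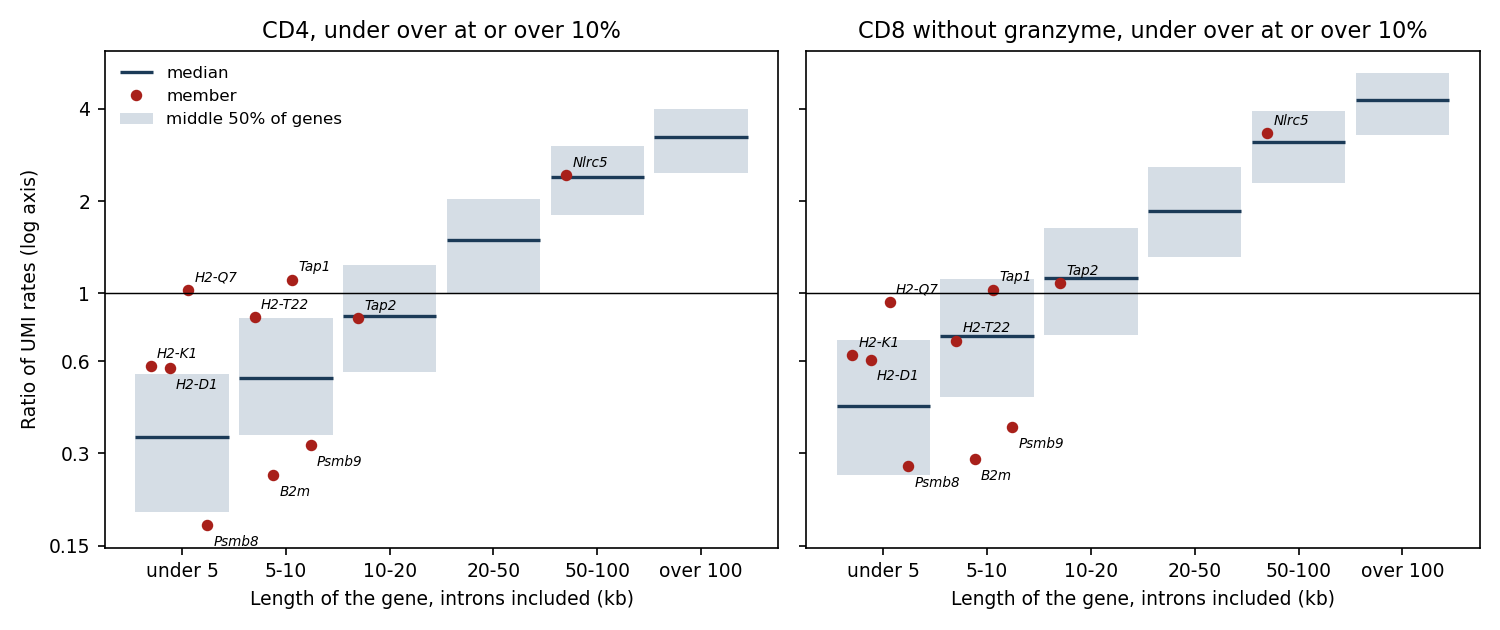
Ratio of UMI rates under over at or over 10% ribosomal share (y axis, log scale) by length of the gene in kb (x axis), for CD4 (left) and CD8 without granzyme (right). Bars span the middle 50% of the genes set in a step, lines are medians and points are the 10 genes. The medians run from 0.339 to 3.24 on the left and from 0.430 to 4.27 on the right, with H2-Q7 above and B2m below the bar of its step in both.

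In the other lists of the pathway most proteasome genes were lower under 10%, against 25.1% of all genes in CD4 barcodes and 19.8% in CD8 barcodes without granzyme. Of the 11 proteasome core genes, 11 were lower in CD4 barcodes under 10% (median 0.379) and 10 in CD8 without granzyme (median 0.434). The median of the genes set in the step under 5000 bases was 0.339 and 0.430 in these 2 comparisons. From 5000 to 10000 bases it was 0.528 and 0.727. Genes of the lists were not set against genes of like length, and the part of length in their ratios was not tested. Of the 3 constitutive catalytic subunits 2 were lower in each, and the third, Psmb7, was at 1.08 and 1.30. Of the 5 other immunoproteasome and activator genes 4 were lower in each, and the fifth, Irf1, which is both a regulator and an interferon response gene, was at 0.857 and 1.61. Psmb8 UMIs per UMI of Psmb5, the constitutive subunit it replaces, were 2.67 (1.34 to 5.69) under and 3.59 (2.96 to 4.37) at or over 10% in CD4 barcodes, and 2.93 and 3.91 in CD8 without granzyme, with intervals that overlapped (12 and 30 Psmb5 UMIs under 10%). Psmb9 UMIs per UMI of Psmb6, its constitutive counterpart, were 4.36 (2.23 to 9.32) under and 1.80 (1.57 to 2.06) at or over 10% in CD8 without granzyme, and 3.86 (1.64 to 10.5) and 2.12 (1.68 to 2.70) in CD4, on 11 and 7 Psmb6 UMIs under 10%. Of the regulators 4 of 10 were higher and 2 lower in CD4, and 7 of 12 were higher and none lower in CD8 without granzyme, with shares of higher genes near the 47.7% and 54.1% of all genes and with Creb1 at 3.48 (2.87 to 4.21). In peptide loading, Lnpep was highest at 2.61 and 3.59, and Sec61b lowest at 0.114 and 0.087. Of the other heavy chains, H2-T23, the Qa-1 gene, also picked out after its values had been seen, was at 0.607 and 0.595, and 3 of 6 and 3 of 7 were lower, with 1 higher in CD8, H2-Q10. In Cd79a barcodes 2 of 3 other heavy chains, 3 of 3 other immunoproteasome genes and 4 of 4 core genes that could be compared were lower, against 39.7% of all genes, and 2 of 2 regulators were higher, against 41.4%.

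Genes whose rates over the 8 groups were most like those of the summed members were sought among 1944 genes with at least 500 UMIs. The root mean square difference of centred log2 rates was 0.12 for Tmed2, 0.16 for Wdr1, 0.17 for Itm2b, 0.18 for Psma3 and 0.19 for Nt5c, against a median of 1.07 over the candidates. Tmed2, which takes part in vesicle transport, went from 2.14 UMIs per 10000 in CD8 with granzyme at or over 10% to 0.322 in Cd79a barcodes under 10%. The summed members went from 130.6 to 31.6 between the same groups. Under 10%, Cd79a barcodes held 62095 UMIs and CD8 barcodes with granzyme 39370. Rates of most of these 5 genes there rest on few UMIs, so their order is uncertain.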

How the data were processed

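The deposited matrix held UMI counts per gene and barcode for 1 library, made by the authors with Cell Ranger against GRCm38 per the submitters' processing notes, version 4 per the file header. The annotation and the kit chemistry (3′ or 5′) are not given in the sources used here, and T cell receptor contigs were deposited for the same barcodes. Counts were raw and unfiltered, so cells were taken as the barcodes of 1334 or more UMIs. No doublets were removed. Scrublet, run in Scanpy 1.11.5, predicted 10 (0.625%), 8 of them in the classes. Rates pooled all UMIs of a class, and ratios of at least 1.5 or at most its inverse counted as past the fold. Genes needed 50 UMIs over the classes compared. With 1 library no test was possible, and comparisons share classes: CD4 barcodes serve in 3, CD8 barcodes without granzyme in 3 and Cd79a barcodes in 2. In barcodes thinned to 1 depth none had to be left out. Named were all members, the highest and lowest gene of each list, the 5 genes most like the members, and those said to be picked out. The members and lists were chosen with earlier results of these data known. Promoters came from RefSeq (GRCm38.p6), and coding identity, used because no protein table was at hand, from GRCm39 transcripts aligned with Biopython 1.88. Python 3.11.15, NumPy 2.4.6, SciPy 1.17.1, pandas 2.3.3 and matplotlib 3.10.9 were used, and scripts were tested on simulated data. Alternatives covered the cell limit (1000 or 2000 UMIs), the ribosomal limit (5% or 15%), the denominator, the class and granzyme calls, free RNA, clonotypes and depth.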

Additional observations from a re-analysis of the deposited data

How the results depend on the processing

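All comparisons rest on 1 library, so that only processing could be varied. Over 83 alternative values of the 6 summed ratios, 55 moved by less than the counting interval, 28 moved by more and none changed direction, and of 830 values of single members 114 moved by more. The causes of these moves were not tested, apart from the denominators, which change the ratios by construction. CD8 without granzyme over CD4 (0.799) was at 0.923 without ribosomal protein UMIs, 0.925 without mitochondrial UMIs too, 0.828 with granzyme called from Gzma or Gzmb, and 0.869 in barcodes of 2000 to 4000 UMIs. CD8 with over without granzyme (1.52) was at 1.27, 1.26, 1.42 and 1.57 under the same settings. Cd79a over CD4 (0.695) was at 0.657 as a mean over barcodes and 0.611 in barcodes of 2000 to 4000 UMIs. Under over at or over 10% in CD4 (0.561) was at 0.533 and 0.697 with the limit at 5% and 15%, 0.431 without ribosomal and 0.434 without mitochondrial UMIs too, 0.532 as a mean over barcodes, 0.588 with 2 UMIs asked of the class genes, 0.671 in clonotyped barcodes and 0.459 at 2000 to 4000 UMIs. In CD8 without granzyme (0.593) it was at 0.517 with the limit at 5%, 0.395 and 0.3999 for the denominators, 0.570 as a mean over barcodes, 0.623 with 2 UMIs, 0.793 in clonotyped barcodes and 0.468 at 2000 to 4000 UMIs. In Cd79a barcodes (0.422) it was at 0.646 with the limit at 15%, and at 0.332 and 0.333 for the denominators. Depth limited the genes at low counts most, with 3 Psmb8 UMIs and 4 Nlrc5 UMIs in Cd79a barcodes under 10%. No paired analysis was possible because there was 1 sample.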

Other observations

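Outside the 4 classes lay 438 barcodes, and small groups of them held H2-K1 and H2-D1 RNA in other proportions. In 19 barcodes with at least 1% of UMIs from neutrophil genes, H2-D1 had 45.4 UMIs per 10000 (40.3 to 51.0) and H2-K1 5.90 (4.15 to 8.13). The ratio of H2-K1 to H2-D1 UMIs there was 0.130 (0.0896 to 0.183, 37 against 285 UMIs), against 0.872 to 1.20 in the classes at or over 10% ribosomal share. In 14 barcodes with at least 1% of UMIs from platelet genes it was 0.216 (0.0870 to 0.472, 8 against 37 UMIs). B2m was at 12.9 UMIs per 10000 in the neutrophil barcodes and 16.5 in the platelet barcodes, and Nlrc5 had 1 UMI in the former and none in the latter. These barcodes held a median of 3140 and 1670 UMIs, and T cell markers summed to 0.797 and 0.411 UMIs per 10000.

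A Cd3 UMI but none of Cd4, Cd8a, Cd8b1 or Cd79a was found in 261 barcodes. There the 10 genes summed to 84.0 UMIs per 10000 (82.1 to 85.9), H2-K1 per H2-D1 was 1.15 (1.08 to 1.21), and 51.3% held a clonotype. Erythroid markers summed to 100.04 UMIs per 10000 in these barcodes and T cell markers to 33.6, so the group did not hold T cell RNA alone. Both are pooled sums, and how many of the barcodes held the erythroid RNA is not given here. In free RNA H2-K1 per H2-D1 was 1.24 (1.13 to 1.35). Nearest above the lower limit for cells, 22 barcodes had 13.8 UMIs per 10000 of H2-K1 (9.96 to 18.5) and 7.04 of B2m (4.41 to 10.7). Nearest below it, 36 barcodes had 19.2 of H2-K1 (15.4 to 23.7) and 13.6 of B2m (10.4 to 17.5).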
